A study of Mus musculus with 58 samples.

Results

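The Fc gamma receptors of mouse microglia were followed at the RNA level through 5 genes, chosen by symbol: the activating receptors Fcgr1, Fcgr3 and Fcgr4, the inhibitory receptor Fcgr2b, and Fcer1g, the signalling chain of the activating receptors. They are 5 of 24940 genes listed for an age series, 5 of 10277 for wild-type (WT) mice given antisense oligonucleotides (ASOs) and 5 of 10589 for Sgsh-knockout (SgshKO) mice given ASOs. Members were found in each of these count tables, and each passed the filter on low counts in each. The filter kept 14309 genes of the age series but removed none from the ASO sets, where every listed gene passed. Microglia had been sorted from the forebrain of C57BL/6 mice as CD11b+, CD45low and CX3CR1+ cells and sequenced as bulk polyA RNA in 58 libraries. The age series compared SgshKO mice, which lack the lysosomal enzyme that removes a sulfate from heparan sulfate, with WT mice, using 3 WT libraries and 4 SgshKO libraries aged 3 weeks, 2 of each aged 4 months, and 4 WT against 7 SgshKO aged 8 months. Injections were compared in 5 WT groups of 4 libraries: PBS, a control ASO named ntc, and single ASOs that target Mitf, Tfeb or Tfe3. The SgshKO mice had 8 libraries from ntc and 8 from the Mitf and Tfe3 ASOs given together. ASOs were injected once into the cerebral ventricles, a route that is not restricted to microglia, and the cells were collected 14 days later. Every ASO-treated SgshKO group, controls included, carried the knockout. The labels give neither the age of the ASO-treated mice nor the sex of any mouse, and they do not say whether a library holds 1 animal or several, so p-values measure the spread between these libraries, which may be partly technical.

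Fc gamma receptors bind the constant part of IgG. Fcgr1 encodes the high-affinity receptor for monomeric IgG. Fcgr3 and Fcgr4 encode receptors of lower affinity that bind IgG in immune complexes. None of these carries an activating motif of its own in the mouse, and they depend on Fcer1g, a small chain whose tyrosine motif (ITAM) recruits the kinase Syk once Src-family kinases have phosphorylated it, which leads to phagocytosis and an oxidative burst. Fcgr2b binds the same complexes but carries an inhibitory tyrosine motif (ITIM) that recruits the lipid phosphatase encoded by Inpp5d. The balance of the activating receptors against Fcgr2b sets the threshold for a response to IgG. Microglia are known to express these receptors, and Mitf, Tfeb and Tfe3 encode related transcription factors of lysosomal genes.

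Except for Fcgr1, the members lie close together. In mm10 (GRCm38), Fcgr2b spans chr1:170960559-170976071 on the minus strand, Fcgr4 chr1:171018926-171029761 on the plus strand, Fcgr3 chr1:171051169-171059403 on the minus strand and Fcer1g chr1:171229572-171234349 on the minus strand. Fcgr1 spans chr3:96282909-96293969 on the minus strand. The counts were given per gene, with transcript lengths of 2581 bases for Fcgr1, 1346 for Fcgr3, 1243 for Fcgr4, 1536 for Fcgr2b and 651 for Fcer1g. Fcgr3 and Fcgr2b are near copies over part of their length: in the reference transcripts they share an unbroken run of 129 identical bases, and 9.58% of the 50-base stretches of Fcgr3 (166 of 1733) are also in Fcgr2b. Reads from that stretch cannot be told apart, and how they were counted is not given in the sources used here, so the values of these 2 genes carry that uncertainty. No 50-base stretch of Fcgr1, Fcgr4 or Fcer1g was shared with another gene.

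The sequences before the start sites of 3 members are shown because these members passed the test in at least 2 of the 3 comparisons of SgshKO with WT, 1 of them lower and 2 higher in SgshKO. They are RefSeq sequences of GRCm38.p6, read 5′ to 3′ on the gene's own strand and ending before the first annotated exon: chr3:96293970-96294219 (minus strand) for Fcgr1, chr1:171018676-171018919 (plus strand) for Fcgr4 and chr1:171234366-171234599 (minus strand) for Fcer1g. Capitals mark matches to the motifs searched on both strands. CACGTG and CATGTG are E-boxes of the kind Mitf, Tfeb and Tfe3 bind. GAGGAA is a form of the site of PU.1, a regulator of myeloid cells, and shorter or other forms were not searched. TTCNNNGAA is the site activated by interferon gamma. The last is the repeat of an interferon-stimulated response element, ISRE (GAAA, any 2 bases, GAAA).
Fcgr1: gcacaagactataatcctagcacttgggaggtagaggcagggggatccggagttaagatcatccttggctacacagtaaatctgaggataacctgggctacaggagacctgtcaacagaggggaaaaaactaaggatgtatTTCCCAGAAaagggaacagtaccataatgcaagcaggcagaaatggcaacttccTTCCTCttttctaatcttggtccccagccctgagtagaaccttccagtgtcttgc
Fcgr4: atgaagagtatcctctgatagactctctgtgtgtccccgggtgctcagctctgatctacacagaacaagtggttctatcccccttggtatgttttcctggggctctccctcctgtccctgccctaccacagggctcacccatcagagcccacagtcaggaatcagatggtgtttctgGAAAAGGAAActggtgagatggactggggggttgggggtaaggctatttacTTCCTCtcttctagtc
Fcer1g: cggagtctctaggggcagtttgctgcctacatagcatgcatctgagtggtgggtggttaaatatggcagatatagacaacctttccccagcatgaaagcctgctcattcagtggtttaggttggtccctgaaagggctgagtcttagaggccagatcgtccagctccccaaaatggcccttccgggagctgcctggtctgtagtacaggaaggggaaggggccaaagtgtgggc
In the 250 bases before the start, Fcgr1 held GAGGAA (as its reverse complement) and TTCNNNGAA, Fcgr4 held GAGGAA (as its reverse complement) and the ISRE repeat, and Fcer1g held none of the 5 motifs. Fcgr3 held GAGGAA and Fcgr2b none of them. No member held CACGTG or CATGTG in this window. Over 32851 windows of the same length before RefSeq starts, 6.02% held CACGTG, 12.3% CATGTG, 23.3% GAGGAA, 7.02% TTCNNNGAA and 2.98% the ISRE repeat. A match is a description of letters, and its absence says nothing of a factor's binding elsewhere.

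Total counts per library were 8191508 to 27106584 for the age series. They were 14372015 to 30378870 for WT and 12517838 to 30431437 for SgshKO mice given ASOs. Each set had 1 model, and no test was made between sets. Fcgr4 was the member with the fewest counts, with 95 in its lowest library, and the lowest count of any other member was 2028. Of 12 microglia markers, 1 was higher and 10 were lower in SgshKO at 8 months, and their sum ran from 45528 to 54975 in WT and, in SgshKO, from 36172 to 40540 in CPM (counts scaled to a common library size). Sgsh itself was at 44.4 CPM in WT and 26.6 in SgshKO at 8 months (log2 fold change -0.74 ± 0.16, SE, edgeR adjusted p = 0.000583) and did not pass at 3 weeks (-0.32, adjusted p = 0.434) or 4 months (-0.40, adjusted p = 0.334). The labels do not say which part of Sgsh is lost, so its counts are a weak check of genotype. Neutrophil markers, 12 genes, summed to 1.15 to 7.68 CPM in the WT libraries. The SgshKO libraries aged 3 weeks had 1.74 to 31.5. They reached 3032 and 14948 CPM in the 4-month SgshKO libraries (replicates 1 and 2) and 437 to 5892 at 8 months, with the highest sums in replicates 3 (5892) and 1 (2883). At 8 months 12 of 12 neutrophil markers were higher in SgshKO, and 4 of them had no count in any WT library. Monocyte markers summed to 15.1 to 18.2 CPM in WT but to 82.6 to 616 with the knockout at that age. Border macrophage markers summed to 20.5 to 38.8 and 86.4 to 135, and dendritic cell markers to 20.4 to 29.1 and 182 to 505. The dendritic cell sum was mostly Itgax, with means of 19.7 CPM in WT and 316 in SgshKO, while Cd209a, Clec9a and Ccr7 had 2.28 CPM or less. Neutrophils and these other cells can carry Fc gamma receptors. Results at 8 months are therefore also given without the libraries above 1000 CPM of neutrophil markers. These number 4 and include both SgshKO libraries aged 4 months. That setting lowers the neutrophil signal but does not remove it. The SgshKO libraries kept at 8 months still had 437 to 837 CPM, and 10 of 10 neutrophil markers tested stayed higher (median log2 fold change 7.98). In bulk RNA, a change in the number of cells of a type and a change of RNA per cell cannot be told apart.

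On a scale that corrects for transcript length, Fcgr3 was the most abundant member in WT microglia and Fcgr4 the least. At 3 weeks, WT levels in the deposited TPM (transcript abundance scaled to a common total) were 967 ± 25.2 for Fcgr3, 724 ± 46.3 for Fcer1g, 282 ± 9.42 for Fcgr1, 253 ± 15.9 for Fcgr2b and 12.7 ± 0.492 for Fcgr4 (SD, n = 3). Fcgr1 (271 to 288) and Fcgr2b (240 to 271) were neighbours in that order by a narrow gap. At 8 months the WT order of these was the reverse, with Fcgr2b at 300 to 456 TPM and Fcgr1 at 227 to 279 (n = 4). In SgshKO at 8 months Fcer1g, at 1103 to 1367 TPM, overlapped Fcgr3, at 1225 to 1543, followed by Fcgr2b at 407 ± 116, Fcgr1 at 182 ± 13.7 and Fcgr4 at 35.0 ± 11.3 (SD, n = 7). In WT of the same age Fcgr3 and Fcer1g did not overlap, at 1183 to 2022 and 761 to 928 TPM.

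The comparison of SgshKO with WT asks how the receptors stand in microglia with a lysosomal storage defect. At 8 months the signalling chain Fcer1g and the low-abundance activating receptor Fcgr4 were higher in SgshKO, the high-affinity receptor Fcgr1 was lower, the inhibitory Fcgr2b was higher by a smaller margin, and Fcgr3 showed no difference past the test. Members called (adjusted p below 0.05, edgeR's quasi-likelihood F test with Benjamini-Hochberg adjustment over all genes tested) numbered 2 of 5 at 3 weeks, 3 of 5 at 4 months and 4 of 5 at 8 months. Over all 14309 genes tested the called share was 9.03%, 19.5% and 40.5% at these ages, so a call was common at 8 months. Groups did not overlap in CPM for 4, 4 and 3 of the 5 members, against 22.5%, 58.1% and 25.2% of all genes. Without the 4 neutrophil-rich libraries, 4 of 5 members were called at 8 months, 3 higher and 1 lower, against 38.4% of 13788 genes. No SgshKO library remained at 4 months under that setting, and 10 of 10 neutrophil markers tested were still higher at 8 months.

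Fcer1g, the chain that carries the ITAM, was higher in SgshKO at each age. At 3 weeks it was at 300, 294 and 324 CPM in WT and 387, 405, 387 and 427 in SgshKO, at 4 months at 313 and 311 against 452 and 460, and at 8 months at 319, 354, 323 and 378 against 630, 573, 513, 558, 528, 536 and 586. Every SgshKO library lay above every WT library of its age. The log2 fold change was 0.39 ± 0.08 at 3 weeks (SE, edgeR adjusted p = 0.00159), 0.55 ± 0.10 at 4 months (adjusted p = 0.000503) and 0.71 ± 0.07 at 8 months (adjusted p = 5.45e-09). At 8 months, of the SgshKO libraries with the most neutrophil markers, replicate 3 had the lowest and replicate 1 the highest Fcer1g of the group. Without the 4 neutrophil-rich libraries the fold change was 0.68 (adjusted p = 6.26e-08). The difference between ages in this effect, 8 months minus 3 weeks, was 0.31 ± 0.10 and just missed the threshold (adjusted p = 0.0538), with DESeq2 giving an adjusted p of 0.0161. It passed without WT replicate 4 of 8 months (0.35, adjusted p = 0.033).

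Fcgr4, an activating receptor for IgG2a, IgG2b and IgG2c complexes, had the largest fold change of the 5 at 4 and 8 months on a low level. In WT it was at 10.5, 9.93 and 10.4 CPM at 3 weeks, 11.2 and 12 at 4 months and 12.7, 9.16, 8.35 and 18.4 at 8 months. SgshKO libraries had 16, 15.1, 14.2 and 15.7 CPM at 3 weeks, 34.2 and 21.5 at 4 months and 35.2, 49.1, 27.7, 25.3, 25.2, 24.7 and 26.7 at 8 months. The groups did not overlap at any age. The log2 fold change was 0.57 ± 0.25 at 3 weeks, which did not pass (adjusted p = 0.184), 1.25 ± 0.33 at 4 months (adjusted p = 0.00772) and 1.35 ± 0.21 at 8 months (adjusted p = 1.03e-05). Without the neutrophil-rich libraries the 8-month value was 1.32 (adjusted p = 4.97e-05). At 4 months the call was lost, by adjusted p, when WT replicate 1 (0.0628), WT replicate 2 (0.0547) or SgshKO replicate 1 (0.125) was left out, where the value ran from 0.85 to 1.5. The change of the effect from 3 weeks to 8 months, 0.77, did not pass (adjusted p = 0.136), but did without WT replicate 4 of 8 months (1.02, adjusted p = 0.0258).

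Fcgr1, which binds monomeric IgG, was lower in SgshKO at each age. WT libraries had 481, 487 and 449 CPM at 3 weeks, 393 and 393 at 4 months and 377, 411, 396 and 451 at 8 months. SgshKO libraries had 326, 427, 427 and 332 at 3 weeks, 293 and 267 at 4 months and 321, 352, 334, 351, 346, 305 and 315 at 8 months. Groups did not overlap at any age, and at 3 weeks the SgshKO libraries split into 2 at 326 and 332 and 2 at 427. The log2 fold change was -0.32 ± 0.09 (SE, edgeR adjusted p = 0.0284), -0.49 ± 0.12 (adjusted p = 0.00595) and -0.30 ± 0.08 (adjusted p = 0.00278) in that order. At 3 weeks, leaving out WT replicate 1 (adjusted p = 0.104), WT replicate 2 (0.118), SgshKO replicate 1 (0.103) or SgshKO replicate 4 (0.112) ended the call, with values of -0.39 to -0.25. Microglia markers moved in the same direction at 8 months, 10 of 12 of them lower; their part in the result was not tested.

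Fcgr3, the most abundant receptor, did not pass at any age. It was at 827, 879 and 819 CPM in WT and 937, 1095, 1010 and 1006 in SgshKO at 3 weeks, where the groups did not overlap (log2 fold change 0.27 ± 0.13, SE, adjusted p = 0.248). At 4 months it was at 1093 and 1042 against 1353 and 982 (0.13 ± 0.16, adjusted p = 0.644). At 8 months WT libraries had 1122, 1185, 1011 and 1693 CPM and SgshKO libraries 1190, 1386, 1172, 1357, 1286, 1203 and 1287 (0.02 ± 0.10, adjusted p = 0.909). WT replicate 4 was the highest of these 11 libraries, and the 8-month value went from -0.07 to 0.17 as single libraries were left out.

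Fcgr2b, the inhibitory receptor, showed no difference at 3 weeks, when WT libraries had 247, 229 and 216 CPM and SgshKO libraries 230, 237, 213 and 211 (-0.05 ± 0.17, SE, adjusted p = 0.937). At 4 months it was at 240 and 238 in WT and 417 and 296 in SgshKO, without overlap, yet did not pass (0.58 ± 0.22, adjusted p = 0.0707). At 8 months WT libraries had 273, 280, 274 and 405 CPM and SgshKO libraries 364, 631, 346, 377, 366, 366 and 363. WT replicate 4 lay above all SgshKO libraries but replicate 2, which was far above the rest. The log2 fold change of 0.38 ± 0.14 passed (edgeR adjusted p = 0.0315). It was 0.44 (adjusted p = 0.0194) without the neutrophil-rich libraries, a setting that keeps SgshKO replicate 2 in a smaller group. Leaving out WT replicate 1 (adjusted p = 0.103), 2 (0.0993) or 3 (0.102) ended the call, and so did leaving out SgshKO replicate 2 (0.0885), which lowered the value to 0.21. The call was also lost with TPM (0.24, adjusted p = 0.209) and in a fit of the 2 groups alone (0.37, adjusted p = 0.0744).

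**Figure D1:**
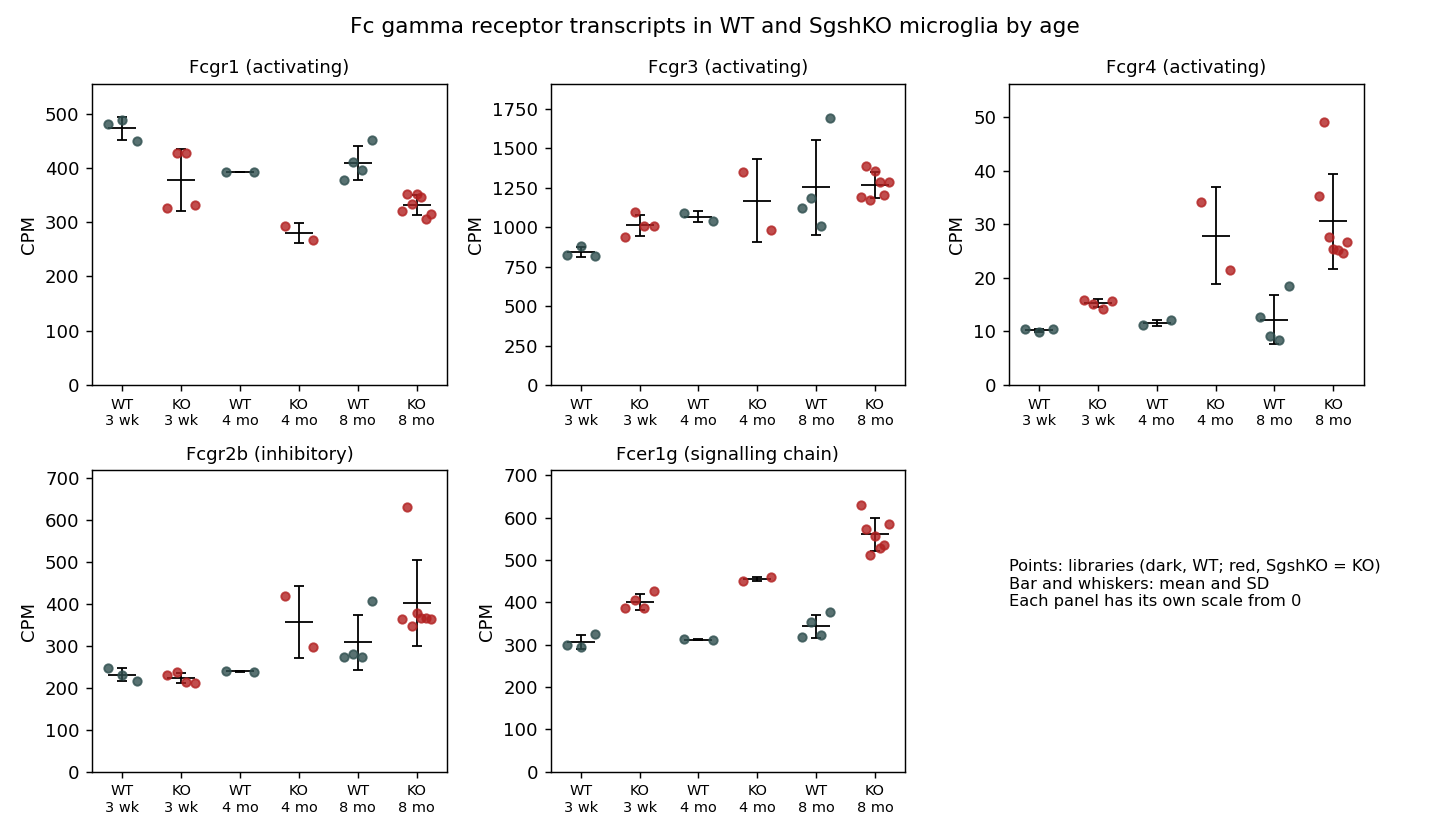
CPM of each member in each library of the age series, 1 panel per gene, by genotype and age; points are libraries, bars the group means and whiskers the SD. Fcer1g and Fcgr4 sit higher and Fcgr1 lower in SgshKO than in WT of the same age, without overlap, while Fcgr3 and Fcgr2b overlap at 8 months.

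Expressed per transcript length, the sum of the 3 activating receptors stood at several times the level of Fcgr2b, and this ratio is given as a description with no test. Its median was 5.61 (5.04 to 5.69) in WT against 6.45 (5.57 to 6.68) in SgshKO at 3 weeks, 6.15 (6.06 to 6.24) and 4.32 (4.22 to 4.41) at 4 months, and 5.52 (5.11 to 5.74) and 4.54 (2.94 to 4.75) at 8 months. The genotypes overlapped at 3 weeks and were apart at the later ages, with SgshKO lower, and SgshKO replicate 2 gave the lowest value at 8 months. Of the summed 4 receptors, Fcgr3 made up a median of 71.5% in WT and 70.4% in SgshKO at 8 months, Fcgr2b 15.3% and 18.0%, Fcgr1 12.7% and 9.65%, and Fcgr4 0.741% and 1.61%. Fcer1g relative to the sum of the 3 receptors it serves was, at 8 months, at 0.507 (0.401 to 0.545) in WT but 0.771 (0.730 to 0.934) in SgshKO. These ratios weigh the 2 genes that share sequence, Fcgr3 and Fcgr2b, against each other.

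**Figure D2:**
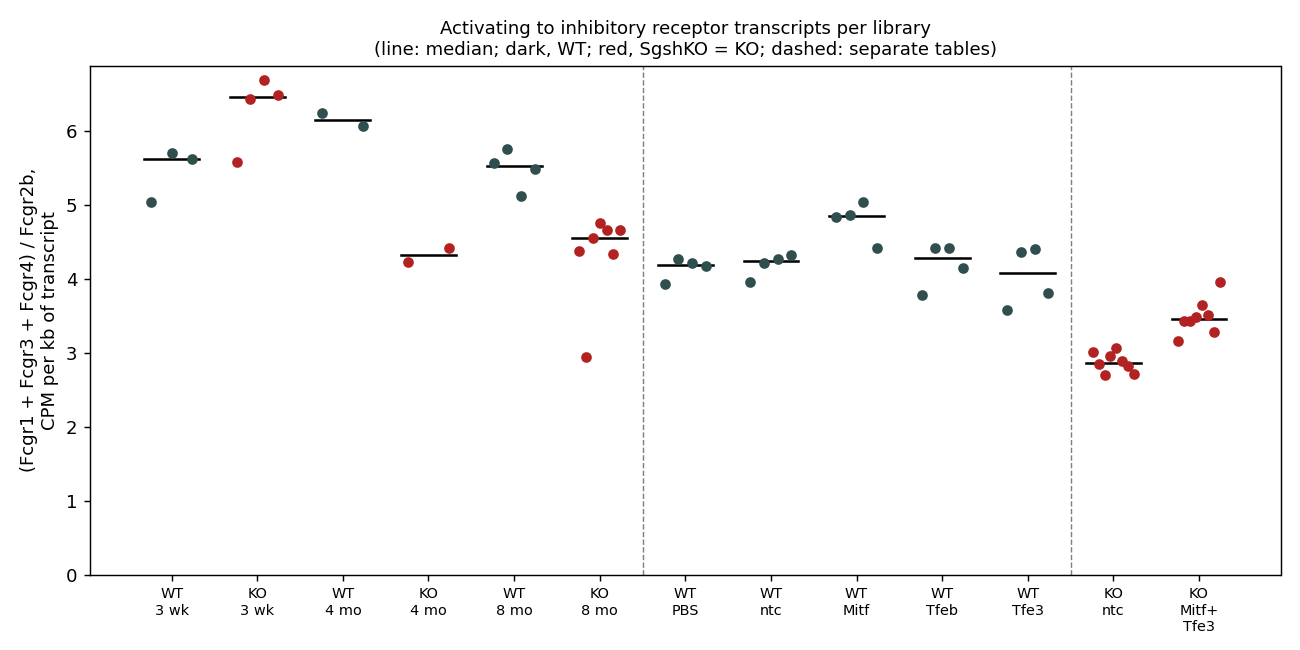
Ratio of the activating receptors Fcgr1, Fcgr3 and Fcgr4 together to Fcgr2b, counts per transcript length, in each library by group; bars are group medians. In the age series the 4-month and 8-month SgshKO libraries lie below WT of the same age (2.94 to 4.75 against 5.11 to 5.74 at 8 months), and the ASO sets were normalised apart.

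With age in WT, Fcgr3 was the member that rose, by 0.57 ± 0.13 from 3 weeks to 8 months (log2 fold change, SE, edgeR adjusted p = 0.00498), which is 1 of 5 against 7.65% of all genes. No member passed in WT from 3 weeks to 4 months (5.21% of all genes called) or from 4 to 8 months (5.77%). In SgshKO, 3 of 5 members passed from 3 weeks to 4 months, against 32.7% of all genes: Fcgr4 (0.86, adjusted p = 0.0158) and Fcgr2b (0.68, adjusted p = 0.00757) rose and Fcgr1 fell by 0.43 (adjusted p = 0.00363). Without SgshKO replicate 1 of 4 months the calls of Fcgr4 (0.46, adjusted p = 0.324) and Fcgr2b (0.38, adjusted p = 0.234) were lost. From 3 weeks to 8 months, 4 of 5 rose in SgshKO, against 15.5% of all genes (30.6% in either direction): Fcgr4 by 1.0 (adjusted p = 0.000505), Fcgr2b by 0.85 (6.71e-05), Fcer1g by 0.48 (4.85e-06) and Fcgr3 by 0.33 (0.0193). Without SgshKO replicate 1 of 3 weeks the Fcgr3 call was lost (adjusted p = 0.0696). Fcgr1 was at -0.19 there (adjusted p = 0.0673) and passed in 3 of 11 fits that leave out 1 library, those without SgshKO replicate 1 or 4 of 3 weeks or replicate 2 of 8 months (adjusted p down to 0.0164). From 4 to 8 months Fcer1g rose by 0.30 (adjusted p = 0.0154), 1 of 5 against 19.8% of all genes, a call lost without either SgshKO library of 4 months (adjusted p up to 0.0798). Ages may also differ in batch, which the labels do not give, and the WT and SgshKO changes with age were not called different for any member: 0 of 5 passed the test of the genotype effect between ages, against 2.52% of all genes for 4 months minus 3 weeks, 9.25% for 8 months minus 3 weeks and 0.391% for 8 months minus 4 months.

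**Figure D3:**
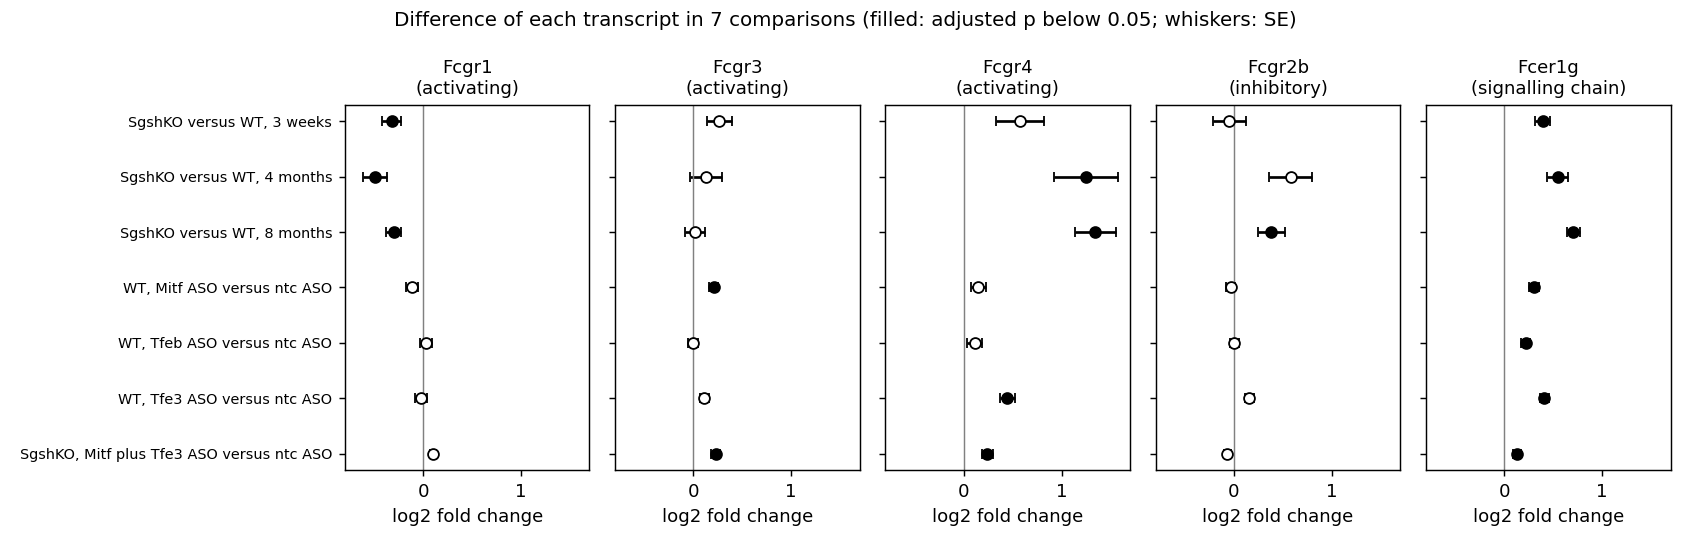
log2 fold changes of the 5 members with their SE in the genotype comparisons at 3 ages and in the ASO comparisons with ntc; filled points passed an adjusted p of 0.05. Fcer1g is positive and passes in each of these comparisons, whereas Fcgr1 is negative and passes in the 3 genotype comparisons.

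Genes that work with the receptors were described from lists. At 8 months, 7 of 9 tested genes on a list of ITAM or related adaptors and receptors were higher and 0 lower in SgshKO. The median log2 fold change of this list was 2.01. Sirpb1a, Clec4e, Clec4d and Pira2, all on the list, had 0, 5, 5 and 6 counts over the 4 WT libraries. With so few WT counts they could hardly be called lower, so the count of 0 lower and the median lean on genes near absent in WT. Among all 14309 genes, 3090 were higher and 2703 lower (median 0.02). Clec7a, the receptor for fungal beta-glucan, rose from 7.61 to 360 CPM (5.61 ± 0.29, SE, edgeR adjusted p = 9.3e-14) and Clec4d, a C-type lectin that signals through Fcer1g, had 5 counts over the 4 WT libraries and 247 over the 7 SgshKO libraries (adjusted p = 0.000475). Sirpb1a, which had no count in WT and 61 in SgshKO, was at least 10.4-fold higher, set against a floor of 3 counts over the WT group. Tyrobp, named after its values were seen, rose from 373 to 1068 CPM (1.52 ± 0.12, adjusted p = 2.16e-10). Without the neutrophil-rich libraries, 7 genes on this list still passed the filter on low counts. Of these 7, 6 were higher and 0 lower (median 1.48), and Clec7a was at 5.61. No value under that setting is given for Sirpb1a.

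Kinases and adaptors downstream of the activating receptors went both ways at 8 months, 6 higher and 11 lower of 27 (median -0.14). Fgr, a Src-family kinase, rose from 5.20 to 33.7 CPM (2.72 ± 0.25, SE, edgeR adjusted p = 2.98e-09) and Fyn, another, fell from 33.3 to 11.7 (-1.5 ± 0.16, adjusted p = 5.27e-08). Vav3, a guanine nucleotide exchange factor, had no count in WT and 185 in SgshKO, at least 31.4-fold higher against the same floor. Syk, named after its values were seen, was at 415 CPM in WT and 366 in SgshKO (-0.18 ± 0.07, adjusted p = 0.0497). The inhibitory receptors and phosphatases also went both ways, 7 higher and 8 lower of 23 (median 0.07). Lilrb4a and Cd22, both ITIM receptors, rose by 4.72 ± 0.20 (adjusted p = 5.01e-15) and 3.92 ± 0.11 (3.43e-18). Clec12a, an ITIM receptor too, had 3 counts in WT and 1047 in SgshKO, 177.7 times as many per library size (exact counting interval 60.6 to 863). Inpp5d, the phosphatase that Fcgr2b recruits, fell from 1760 to 1388 CPM (-0.34 ± 0.09, adjusted p = 0.00348), also named after its values were seen. Without the neutrophil-rich libraries the counts were 6 higher and 10 lower for the activating and 7 higher and 8 lower for the inhibitory list. No value under that setting is given for Vav3 or Clec12a. Their counts are pooled over libraries, so deeper libraries weigh more, and the part of other cells in them was not tested.

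Genes of phagocytosis and the actin skeleton were higher for 14 and lower for 7 of 27 at 8 months (median 0.27), with Cybb, a subunit of the phagocyte NADPH oxidase, from 1.84 to 79.9 CPM (5.44 ± 0.48, SE, edgeR adjusted p = 2.02e-09), the actin-severing protein gene Gsn from 2.51 to 48.8 CPM and the myosin gene Myo1f from 227 to 563 CPM. Cybb is abundant in neutrophils too, and its fold change was 4.88 without the neutrophil-rich libraries, where the list had again 14 higher and 7 lower. Genes of the interferon response were higher for 17 and lower for 4 of 25 (median 0.82), among them Ifitm3 (3.50), Oasl2 (2.63) and Ifi44, which had 4 counts in WT and 392 in SgshKO. The count was 16 higher and 4 lower without the neutrophil-rich libraries. Other Fc receptors did not share one direction, with 1 higher and 2 lower of 6 tested: Fcgrt, the neonatal Fc receptor that returns IgG to the cell surface, fell from 114 to 54.4 CPM (-1.07 ± 0.10, adjusted p = 1.01e-08), Fcrls, a receptor-like gene that marks microglia, rose by 0.35 (adjusted p = 0.00236), and Fcrl1 fell by 0.25 (adjusted p = 0.0334), a call lost without the neutrophil-rich libraries (adjusted p = 0.0803).

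Over the 22 age libraries the members did not vary as 1 group, which is given as a description, since the libraries share genotype and age. Log2 CPM of Fcgr4 and Fcer1g had a Pearson r of 0.905, Fcgr4 and Fcgr2b of 0.822 and Fcgr3 and Fcgr2b of 0.801, whereas Fcgr1 and Fcer1g had an r of -0.711. Among 10028 genes with a mean of at least 5 CPM, those most like Fcer1g were Pgghg (0.966), Ctsd (0.965) and P2rx4 (0.962), those most like Fcgr4 were Fgl2 (0.944), C4b (0.942) and Ppt1 (0.937), and those most like Fcgr1 were Zfp710 (0.913), Tnrc18 (0.911) and Iqsec2 (0.896). Fcgr3 was most like Ms4a6d (0.862), Gcnt2 (0.846) and Cdc42ep3 (0.837), and Fcgr2b most like Prune2 (0.898), Fgl2 (0.891) and Hcar2 (0.885). Genes within 500 kb of a member went both ways at 8 months. On chromosome 1, 6 were higher and 11 lower of 32 tested, and on chromosome 3, 2 were higher and 6 lower of 36. The share called in either direction at that age was 40.5% of all genes.

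In WT mice, the ASOs lowered their targets: Mitf from 43.7 to 1.58 CPM (log2 fold change -4.81), Tfeb from 54.9 to 5.80 (-3.24) and Tfe3 from 198 to 38.1 (-2.38), each against ntc. Fcer1g rose with each of these ASOs, Fcgr3 with the Mitf ASO and Fcgr4 with the Tfe3 ASO, while Fcgr1 and Fcgr2b did not pass with any. The comparisons share the ntc libraries, so their agreement is not independent. Members called numbered 2 of 5 with the Mitf ASO, 1 of 5 with Tfeb and 2 of 5 with Tfe3, against 11.0%, 0.778% and 2.16% of 10277 genes, and the groups did not overlap for 2, 1 and 1 members, against 7.67%, 4.07% and 4.68%. The control ASO against PBS gave no called member and no called gene (0%, edgeR), with 415 genes at an unadjusted p under 0.05 and 2 called by DESeq2.

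Fcer1g was at 515, 519, 524 and 505 CPM with PBS and 561, 556, 538 and 524 with ntc, in the order of the group number (grp) of the titles. With the Mitf ASO it was at 716, 717, 610 and 652 CPM, with Tfeb at 690, 655, 579 and 618 and with Tfe3 at 773, 694, 727 and 700. Each of these 12 libraries was above every ntc library. The log2 fold change against ntc was 0.30 ± 0.05 with Mitf (SE, edgeR adjusted p = 0.000455), 0.22 ± 0.05 with Tfeb (0.035) and 0.41 ± 0.05 with Tfe3 (0.000108). The Tfeb call was lost in 7 of 8 fits that leave out 1 library, all but the one without Tfeb grp 3, at values of 0.19 to 0.25 and adjusted p up to 0.199. Tyrobp, the related adaptor, rose with each ASO too, by 0.51 (edgeR adjusted p = 6.38e-05), 0.33 (0.0227) and 0.40 (0.00303), and was named here after its values were seen.

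Fcgr3 was at 1506, 1693, 1619 and 1579 CPM with ntc and 1919, 1890, 1846 and 1717 with the Mitf ASO, without overlap and higher in 4 of 4 grp (log2 fold change 0.21 ± 0.05, SE, edgeR adjusted p = 0.0117). It did not pass with Tfe3 (0.11, adjusted p = 0.263), and in a contrast added after seeing the values it was higher with the Mitf than with the Tfeb ASO (0.21, adjusted p = 0.0245, 1 of 5 members against 3.53% of genes), a call kept in 4 of 8 fits that leave out 1 library (adjusted p up to 0.0887). Fcgr4 was at 27.1, 24.5, 22.4 and 20.8 CPM with ntc and 39.4, 34.5, 29.9 and 25.9 with the Tfe3 ASO. These groups overlap, but within each grp the Tfe3 library was higher, and the fit with grp called the difference (0.44 ± 0.08, adjusted p = 0.00478). Fcgr4 was lower with the Mitf than with the Tfe3 ASO (-0.30, adjusted p = 0.0323), as was Fcgr2b (-0.19, adjusted p = 0.0336), 2 of 5 members against 3.76% of genes. Of 8 fits that leave out 1 library, 2 kept the Fcgr4 call (adjusted p up to 0.117) and 3 the Fcgr2b call (up to 0.121). Between Tfeb and Tfe3, Fcgr4 was lower with Tfeb (-0.33, adjusted p = 0.035), 1 of 5 against 1.62%, and 1 of 8 such fits kept this call (adjusted p up to 0.109). Fcer1g was at -0.19 between them (adjusted p = 0.0532) and passed without Tfeb grp 1 or Tfe3 grp 2 (adjusted p down to 0.0285). Fcgr1 ranged from 453 to 617 CPM with ntc and did not pass with any ASO (Mitf -0.12, adjusted p = 0.233). Fcgr2b was at 501 to 553 CPM with ntc and 544 to 639 with Tfe3, and did not pass against ntc (0.16, adjusted p = 0.106). Without grp as a block, the calls for Fcgr3 with Mitf (adjusted p = 0.075), Fcer1g with Tfeb (0.31) and Fcgr4 with Tfe3 (0.484) were lost.

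**Figure D4:**
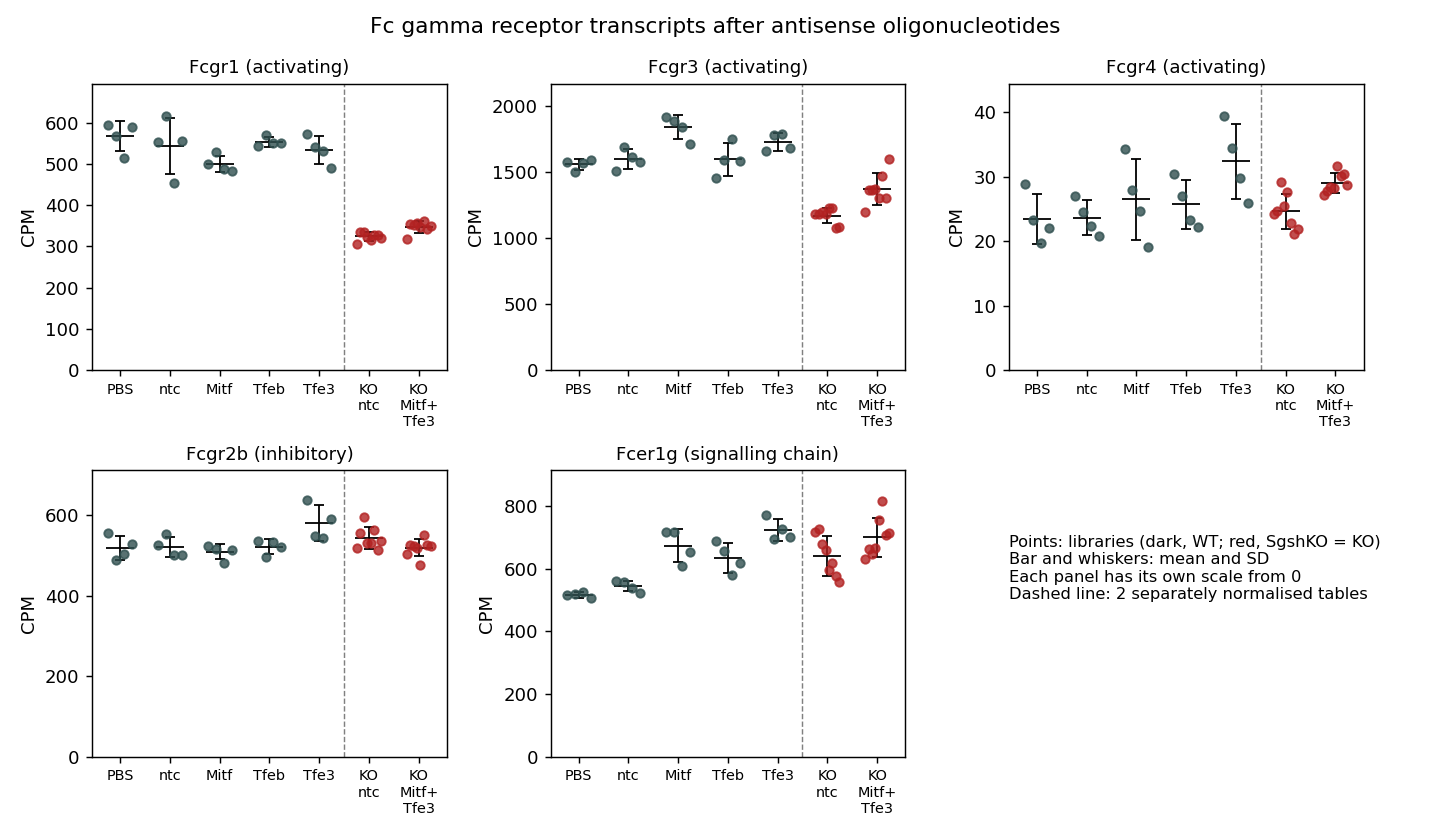
CPM of each member in each ASO library, 1 panel per gene, by treatment in WT and SgshKO mice; points are libraries, bars the group means and whiskers the SD. WT Fcer1g lies at 524 to 561 with ntc and at 579 to 773 with the 3 targeted ASOs; the 2 sets were normalised apart.

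The ratio of activating receptors to Fcgr2b was at a median of 4.24 (3.96 to 4.31) with ntc and 4.19 (3.93 to 4.26) with PBS. With the Mitf ASO it was at 4.85 (4.41 to 5.04), above every ntc library, and with Tfeb (4.28, 3.78 to 4.41) and Tfe3 (4.08, 3.57 to 4.40) it overlapped ntc. Microglia markers were lower for 5 and higher for 0 of 12 with the Mitf ASO, with sums of 68371 to 72988 CPM against 72637 to 77136 with ntc. The neutrophil markers are not among the genes of the WT ASO table. The part of other cells in these values was not tested.

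In SgshKO mice, the Mitf and Tfe3 ASOs together lowered Mitf from 72.4 to 15.3 CPM (log2 fold change -2.26) and Tfe3 from 170 to 80.4 (-1.08). The activating side rose by small amounts: Fcgr3, Fcgr4 and Fcer1g passed, 3 of 5 members against 9.33% of 10589 genes, while Fcgr1 and the inhibitory Fcgr2b did not. Groups overlapped for each of the 5 members, and 1.06% of genes did not overlap. Fcgr3 had a lowest, median and highest value of 1077, 1184 and 1232 CPM with ntc, against 1201, 1363 and 1601 with both ASOs (0.23 ± 0.05, SE, edgeR adjusted p = 0.00821). Fcgr4 had 21.1, 24.5 and 29.1 CPM with ntc and 27.2, 28.6 and 31.7 with the combination (0.24 ± 0.06, adjusted p = 0.016). Fcer1g had 558, 639 and 726 CPM with ntc and 631, 687 and 815 with the combination (0.13 ± 0.04, adjusted p = 0.0405). The lowest combination library of Fcgr4 lay above the ntc median, and the 2 groups of Fcer1g overlapped over most of their range.

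The libraries fall into 2 grp of 4 and 4. Within grp 1, Fcer1g was at 660 to 726 CPM with ntc, against 709 to 815 with both ASOs, and within grp 2 at 558 to 619 and 631 to 666, so grp 1 was the higher of the 2 and grp 2 did not overlap. Within a single grp no member passed: Fcgr3 was at 0.27 (adjusted p = 0.0757) and 0.18 (0.115), Fcgr4 at 0.24 (0.132) and 0.25 (0.147) and Fcer1g at 0.12 (0.309) and 0.14 (0.107). The Fcer1g call was lost in 10 of 16 fits that leave out 1 library, at adjusted p up to 0.084. Fcgr1 had 306, 326 and 336 CPM with ntc and 317, 351 and 363 with the combination (0.10 ± 0.04, adjusted p = 0.0766). Fcgr2b had 515, 535 and 595 CPM with ntc and 477, 524 and 550 with the combination (-0.07 ± 0.04, adjusted p = 0.287). The ratio of activating receptors to Fcgr2b was at a median of 2.87 (2.69 to 3.06) with ntc, against 3.46 (3.16 to 3.95) with both ASOs, without overlap.

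Around the members, the combination raised 14 and lowered 0 of 24 interferon response genes (median 0.36), led by Irf7 (0.94, adjusted p = 0.000284) and Oasl2 (0.94, adjusted p = 0.000451), against 512 higher and 476 lower of all genes (median 0.00). Of 27 phagocytosis and actin genes 5 were higher and 0 lower, with the Arp2/3 subunit gene Arpc1b at 0.46 (adjusted p = 0.00519) and Dock2 at 0.28 (0.0445). Of 26 activating signal genes 3 were higher and 1 lower, with the adaptor gene Lat2 at 0.43 (adjusted p = 0.000284). Of 20 inhibitory genes 0 were higher and 3 lower, among them Cd300a (-0.24, adjusted p = 0.0287) and Pirb (-0.23, adjusted p = 0.0323). Among the ITAM or related adaptors and receptors, Tyrobp rose by 0.28 (edgeR adjusted p = 0.00615) and Clec7a fell from 322 to 221 CPM (-0.55, adjusted p = 0.000219). Fcrl1, of the other Fc receptors, fell by 0.25 (adjusted p = 0.0106). Neutrophil markers, 6 of 12 listed in this table, summed to 1.03 to 564 CPM with ntc, against 0.996 to 358 with both ASOs, 0 of 6 called. Border macrophage markers, 2 of 11 listed, were both higher with the combination, at 169 to 206 CPM against 121 to 191, and microglia markers were higher for 3 and lower for 0 of 12. Itgax, counted here as a dendritic cell marker, was lower with the combination (224 to 143 CPM, -0.64, edgeR adjusted p = 4.62e-08), 1 of 2 listed. Among monocyte markers, Ccr2 was lower (4.49 to 2.76 CPM, -0.71, adjusted p = 0.00793), 1 of 3 listed, and of the B cell markers, Ighm was higher (0.24, adjusted p = 0.00395), 1 of 2 listed. The part of these cells in the members' values was not tested.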

How the data were processed

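Bulk polyA RNA-seq libraries of sorted microglia (22 in the age series, 20 from WT and 16 from SgshKO ASO-treated mice) were analysed from 3 raw count tables that the authors deposited. TPM (transcript abundances) of the age series and, for the ASO libraries, a normalised and batch-corrected signal, both deposited by the authors, served as alternatives, and TPM also to compare genes. The submitters' processing notes name mm10, STAR 2.5.3a, kallisto 0.44.0, HOMER 4.11, DESeq2 1.36.0 and R 4.2.3 without their roles, and the correction behind the signal is not given in the sources used here. The TPM table lists other RefSeq transcripts for Fcgr3 and Fcgr2b than the count table, so TPM was not used for the ratios, which divide counts by the transcript lengths of the count table, also in the ASO sets.

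Counts were tested in R 4.3.3 with the quasi-likelihood test of edgeR 4.0.16 after TMM scaling and filterByExpr (minimum count 10), 1 model per table, with Benjamini-Hochberg adjustment over all genes tested (14309, 10277 and 10589) at 0.05. CPM are scaled by TMM factor, and the SE is the absolute log2 fold change divided by the square root of F. The model held genotype and age groups in the age series and treatment and grp in the ASO sets. The title of PBS replicate 4 says grp 4 while its count column says grp 3, and grp 4 was used. In the WT ASO set same-numbered libraries of ntc and another treatment deviated together (16 of 16 pairs with r above 0.1, 0.122 to 0.64), 2 of 40 pairs of any treatments did not. On counts simulated at the real depths, with changes larger than most of those called for the members, edgeR recovered most of the changed genes. Power for smaller changes was not simulated. DESeq2 1.42.0 and limma 3.58.1 were run as alternatives, along with other scaling, no filter, other blocks and each library left out in turn. Promoter windows are RefSeq, GRCm38.p6, and shared stretches were searched in the reference transcripts. Intervals and floors cover counting error only.

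Members and gene lists were chosen with earlier results of these data known, so counts over them are descriptions. Genes named beside the members were, per list, up to 3 with the largest fold change among those called at 8 months and up to 2 for the combined ASOs, the targeted genes, and the 3 genes most correlated with each member (log2 CPM with a prior count of 2), except where the text says a gene was named after its values were seen. A gene that this rule selects is not reported here. The 3 contrasts between targeted ASOs and the fits without neutrophil-rich or 4-month libraries were added after seeing the data.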

Additional observations from a re-analysis of the deposited data

Results flagged for a closer look

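In 50 sets of values, 1 per member and group of 4 to 10 libraries, the highest or lowest library was compared with its nearest neighbour by Dixon's ratio, which flags about 1 in 20 sets by chance. 4 stood apart. Fcgr2b in SgshKO at 8 months was at 630.8 CPM in replicate 2, with the nearest library at 376.8, and Fcgr4 in the same library was at 49.1 CPM, with the nearest at 35.2. Fcgr2b in WT at 8 months was at 405.2 CPM in replicate 4, with the nearest library at 279.9. Fcgr1 with the Mitf and Tfe3 ASOs in SgshKO mice was at 317.0 CPM in grp 2 replicate 1, the lowest of 8, with the nearest at 342.1.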

How the results depend on the processing

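Apart from fits that leave out 1 library, 285 values of members in the genotype and ntc comparisons were recomputed: 259 kept direction and side of the threshold, 15 lost a call, 6 gained one and 5 changed sign. The other 405 values, for ages, interactions and contrasts between ASOs, gave 382, 9, 8 and 6. Where no cause is given, the cause was not tested. The 4-month value of Fcgr2b passed without the filter (0.59, adjusted p = 0.0182) and in a fit of the 2 groups (0.57, 0.0423), while its 8-month call was lost with TPM at either pseudocount (0.24, 0.209) and in the fit of the 2 groups (0.37, 0.0744). At 3 weeks the fit of the 2 groups lost Fcgr1 (-0.32, 0.0736) and gained Fcgr3 (0.27, 0.021) and Fcgr4 (0.58, 0.0102). At 8 months Fcgr3 changed sign with TPM (-0.10) and without the 4-month libraries (-0.0044). DESeq2 gained Fcgr2b with Tfe3 (0.17, 0.0369) and Fcgr1 with the combination (0.11, 0.0313). The batch-corrected signal turned Fcgr2b for ntc against PBS (-0.0071) and Fcgr1 with Tfe3 (0.033). Without the grp term Fcer1g lost its call with the combination (0.13, 0.298), and within grp 1 and grp 2 alone calls were lost, with fewer samples, for Fcgr3 (0.27 and 0.18), Fcgr4 (0.24 and 0.25) and Fcer1g (0.12 and 0.14). Uncalled values that changed sign were the Fcgr1 effect at 8 months minus 3 weeks with TPM (-0.04) and in the fit of the groups alone (-0.011), and Fcgr4 in WT from 4 to 8 months with TPM (-0.00079 and -0.0048).

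Same-numbered age libraries did not deviate together (r of -0.171 to 0.115 at 3 weeks, 0.0287 at 4 months and -0.06 to 0.0548 at 8 months), so the number is no block there. With the replicate block, Fcgr1 at 3 weeks was at -0.33 (adjusted p = 0.0546) and Fcgr2b in WT from 3 weeks to 4 months at -0.027. With no replicate block in the WT ASO set, Fcgr3 with Mitf was at 0.20 (0.075), Fcer1g with Tfeb at 0.22 (0.31) and Fcgr4 with Tfe3 at 0.46 (0.484). In the SgshKO ASO set same-numbered libraries had r of 0.088 to 0.612 in grp 1 and 0.0839 to 0.156 in grp 2, and the replicate block changed no member's call there.

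Leaving out 1 library at a time changed a call or sign for some members. At 3 weeks Fcgr1 ran from -0.39 to -0.25 and Fcgr2b from -0.089 to 0.0028. At 4 months Fcgr3 ran from -0.16 to 0.29 and Fcgr4 from 0.85 to 1.5. At 8 months Fcgr3 ran from -0.072 to 0.17 and Fcgr2b from 0.21 to 0.51. For ntc against PBS, Fcgr1 ran from -0.11 to 0.0048, Fcgr4 from -0.030 to 0.084 and Fcgr2b from -0.043 to 0.030. With Mitf, Fcgr1 ran from -0.19 to -0.067 and Fcgr2b from -0.057 to 0.016. With Tfeb, Fcgr1 ran from -0.039 to 0.080, Fcgr3 from -0.044 to 0.023, Fcgr2b from -0.030 to 0.053 and Fcer1g from 0.19 to 0.25. With Tfe3, Fcgr1 ran from -0.092 to 0.027 and Fcgr2b from 0.13 to 0.20. With the combination, Fcgr1 ran from 0.086 to 0.12 and Fcer1g from 0.12 to 0.14. With Tfeb against Tfe3, Fcgr1 ran from -0.0070 to 0.080. Across ages, Fcer1g in WT from 3 weeks to 4 months ran from -0.00016 to 0.076, Fcgr4 in WT from 3 weeks to 8 months from -0.040 to 0.37 and from 4 to 8 months from -0.22 to 0.19, and Fcgr3 in SgshKO from 3 weeks to 4 months from -0.078 to 0.37. In SgshKO from 4 to 8 months, Fcgr3 ran from -0.058 to 0.41, Fcgr4 from -0.13 to 0.54 and Fcgr2b from -0.022 to 0.48. The change of the genotype effect ran from -0.42 to 0.011 for Fcgr3 (4 months minus 3 weeks), from -0.053 to 0.087 for Fcgr1 (8 months minus 3 weeks) and, for 8 months minus 4 months, from -0.30 to 0.16 for Fcgr3, from -0.18 to 0.49 for Fcgr4 and from -0.40 to 0.096 for Fcgr2b. Calls also changed for the effect at 8 months minus 3 weeks of Fcgr4 (0.61 to 1.02) and Fcer1g (0.26 to 0.35). In SgshKO they changed from 3 weeks to 4 months for Fcgr4 (0.46 to 1.11) and Fcgr2b (0.38 to 0.86), from 3 weeks to 8 months for Fcgr1 (-0.26 to -0.12) and Fcgr3 (0.29 to 0.37), and from 4 to 8 months for Fcer1g (0.26 to 0.35). Between ASOs they changed for Fcgr3 with Mitf against Tfeb (0.18 to 0.25), for Fcgr4 (-0.35 to -0.22) and Fcgr2b (-0.22 to -0.16) with Mitf against Tfe3, and for Fcgr4 (-0.37 to -0.33) and Fcer1g (-0.24 to -0.16) with Tfeb against Tfe3. Fcgr4 was the member with the fewest counts, 95 in its lowest library, and the part of depth in its spread was not tested.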
